A study of Mus musculus with 5 samples.

Results

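Regions of open chromatin that were present in mesoderm, hemangioblasts, hemogenic endothelium and macrophages but absent from hematopoietic progenitors were chosen by the readout itself. Every DNaseI hypersensitive site (DHS) of the 5 deposited lists was set to a 500 bp window around its middle, windows whose middles lay at most 375 bp apart were chained into merged regions, and regions holding a window of every stage except the progenitors were kept. The rule kept 718 of 68846 merged regions. Regions open in all 5 stages numbered 9067 and serve as the main comparison, beside the 643 regions lacking only hemogenic endothelium and the 1601 lacking only macrophages. Absence from the progenitor list is therefore how these regions were found and is not a result about them.

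The lists come from DNaseI-seq of a differentiating mouse embryonic stem cell line with a brachyury GFP reporter, with 1 list per stage. The stages were mesoderm (MES, GFP+ and Flk1-), hemangioblasts (HB, GFP+ and Flk1+, with endothelial, smooth muscle and blood potential), hemogenic endothelium (HE, sorted as CD41- cells with Tie2 and cKit), hematopoietic progenitors (HP, sorted on CD41) and macrophages (MAC, grown from CD41+ cells and sorted on CD11b), all from the same reporter line and without any further treatment given in the labels. With 1 list per stage the spread between cultures is unknown, so no test between stages was possible and the 95% Wilson intervals given here cover counting error only. The HP list was the shortest, with 17734 sites against 21949 in MES, 24729 in HB, 33305 in HE and 37456 in MAC. The study also lists HP as the library with the fewest aligned reads. The lists carry no read counts, so whether a region was closed in HP or fell below the calling threshold there cannot be told apart. At promoters the marker genes followed the labels in part: T, which encodes Brachyury, had a site within 1 kb in MES and HB, Cdh5 and Tek in HE, Itga2b, which encodes CD41, in HE and HP, and Itgam and Csf1r in MAC, whereas Gfi1b, a factor of the endothelial to hematopoietic transition, had one in MAC only. Kdr, which encodes the Flk1 used to part MES from HB, and Cd68 had a promoter site in all 5 stages, Mixl1 in HE as well as MES and HB, and Kit in MES, HB, HE and HP. Spi1, taken as a marker of HP, had one in HE, HP and MAC.

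A DHS is a short stretch of DNA from which nucleosomes are displaced, mostly by bound transcription factors, and which DNaseI therefore cuts easily. Promoters of widely used genes, commonly rich in CpG, and sites of the insulator protein CTCF stay open in most cell types, whereas enhancers open and close as cells change identity. During the endothelial to hematopoietic transition, adherent hemogenic endothelial cells round up and detach as CD41+ progenitors, and macrophages that arise later adhere again.

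Sequences are shown for regions whose sites were wide in all 4 other stages. They are extremes of the set, since 16 of the 718 regions had a narrowest site of 1000 bp or more and the median was 400 bp. Among regions with no HP site within 1 kb, a selection of the widest by their narrowest site is printed as the central 200 bases in GRCm38 (mm10), plus strand, from RefSeq, with any match to the 18 consensus motifs searched in capitals. 3 of those shown lie farther than 2 kb from the transcription start site (TSS) of a curated mRNA and are named by the nearest gene: Mrps33, a mitochondrial ribosomal protein (chr6:39781519-39781718), Btn1a1, a milk fat globule protein (chr13:23446058-23446257), and Psmd12, a proteasome subunit (chr11:107510789-107510988).
Mrps33: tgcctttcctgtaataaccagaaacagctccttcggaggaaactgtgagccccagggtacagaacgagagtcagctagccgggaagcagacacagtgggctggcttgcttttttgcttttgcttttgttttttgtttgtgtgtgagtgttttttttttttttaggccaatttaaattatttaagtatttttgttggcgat
Btn1a1: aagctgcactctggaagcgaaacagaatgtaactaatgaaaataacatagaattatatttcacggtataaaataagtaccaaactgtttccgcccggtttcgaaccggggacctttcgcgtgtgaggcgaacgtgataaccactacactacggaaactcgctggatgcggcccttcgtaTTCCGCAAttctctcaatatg
Psmd12: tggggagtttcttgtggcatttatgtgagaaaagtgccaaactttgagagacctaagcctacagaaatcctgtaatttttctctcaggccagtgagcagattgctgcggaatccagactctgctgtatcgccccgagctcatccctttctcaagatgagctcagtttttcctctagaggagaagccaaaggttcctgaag
The capitals mark a C/EBP consensus (TTGCNNAA) in the Btn1a1 stretch, and the other stretches hold none of the motifs. The Btn1a1 stretch contains a nuclear tRNA-Val gene on the minus strand (chr13:23446142-23446214).

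The same choice among promoters gave Hivep2, a zinc finger transcription factor (chr10:13964954-13965153), and Psmb8, an immunoproteasome subunit (chr17:34197751-34197950). The stretch of Hivep2 holds a single SP/KLF GC box (GGGCGGG) and that of Psmb8 none of the motifs.
Hivep2: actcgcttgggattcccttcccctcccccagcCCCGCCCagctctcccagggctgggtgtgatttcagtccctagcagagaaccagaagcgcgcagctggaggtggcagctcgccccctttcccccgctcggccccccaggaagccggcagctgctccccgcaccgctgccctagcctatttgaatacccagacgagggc
Psmb8: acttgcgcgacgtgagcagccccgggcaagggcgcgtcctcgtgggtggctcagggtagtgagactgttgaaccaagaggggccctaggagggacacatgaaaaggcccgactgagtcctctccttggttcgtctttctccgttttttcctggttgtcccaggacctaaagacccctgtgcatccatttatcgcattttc

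CTCF has the longest consensus of the motifs searched, so its match and 14 bases on each side are shown for the 5 regions away from promoters with the widest sites and no HP site within 1 kb (chosen after their values were seen, strand of the consensus, match in capitals).
Pheta1: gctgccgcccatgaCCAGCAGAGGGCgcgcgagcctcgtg
Rbm15: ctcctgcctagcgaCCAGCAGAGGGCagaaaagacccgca
Il5: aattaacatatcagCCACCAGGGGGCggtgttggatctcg
Lrrc75a: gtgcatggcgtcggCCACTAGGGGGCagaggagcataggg
Tifab: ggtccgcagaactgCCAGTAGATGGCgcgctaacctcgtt
These lie at chr5:121842989-121843028, chr3:107357316-107357355, chr11:53737291-53737330, chr11:62613822-62613861 and chr13:56197676-56197715 in GRCm38. The Lrrc75a region lies in an intron of that gene and the other regions are intergenic. The sites of the Tifab region were 700, 700, 600 and 600 bp wide in MES, HB, HE and MAC, almost the same width in each stage, and its nearest HP site was 61.5 kb away. Those of the Rbm15 region were 800, 700, 900 and 800 bp wide in the same order.

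The rule looks at the middles of sites, so a deposited HP site can still touch a region, and a low touched share is partly set by the rule. Of the 718 regions, 13 were touched by an HP interval and 705 were not. The touched share was 1.81% (95% Wilson interval 1.06 to 3.07), whereas an HE interval touched 71.2% (67.6 to 74.6) of the 643 regions lacking only HE. Sites of the HE list had a median width of 1200 bp, against 900 bp in HP, and a wider site reaches farther from its middle. The part of width in this contrast was not tested. For regions lacking only MAC, HB or MES the touched share was 7.31%, 18.4% and 4.43%. Beside the joining limit of 375 bp, the closest HP middles that stayed outside were 382, 433 and 456 bp away, and the most distant HP middles inside regions open in all 5 stages lay 369 and 365 bp from the nearest other middle, where the median was 21 bp.

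The distance to the nearest HP site ranged widely. The nearest HP interval lay within 1 kb of 21 regions, within 5 kb of 137, within 10 kb of 231, within 50 kb of 530 and within 100 kb of 628. The median gap was 20.5 kb, with quartiles at 7.22 and 52.7 kb. For regions lacking only MES, MAC or HB the median gap to a site of the missing stage was 15.5, 11.3 and 7.27 kb, and these lists are all longer than that of HP. The largest gap, 5996 kb, belonged to a region within 2 kb of a TSS of Cdh10, a cadherin.

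**Figure D1:**
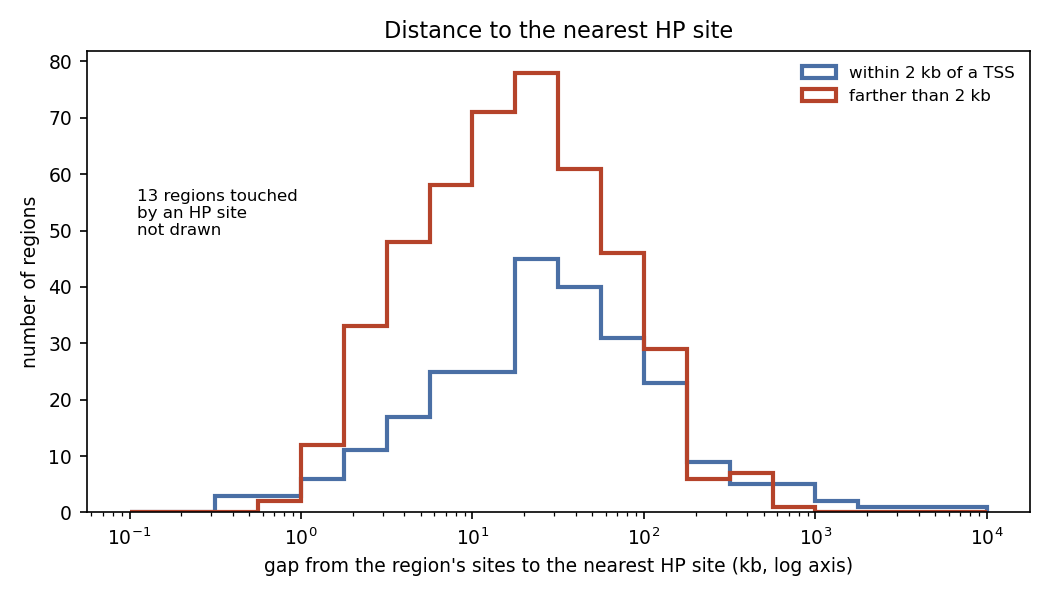
Number of regions lacking only HP (vertical axis) by the gap between the region's sites and the nearest HP site (kb, log axis), for the 263 regions within 2 kb of a TSS and the 455 farther away; 13 regions touched by an HP site are left out. In both classes the most regions lie between about 10 and 100 kb from an HP site, around the median of 20.5 kb.

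The 4 stages did not contribute sites of equal width, and the widths were lower than in regions open in all 5 stages in each of them. The median widths of 600 (MES), 800 (HB), 1100 (HE) and 500 bp (MAC) stood against 1000, 1200, 1600 and 900 bp in regions open in all 5 stages, where the HP sites had a median of 1100 bp. The narrowest site was that of MAC alone in 408 regions and that of MES alone in 180, whereas HB held it in 27 and HE in 12. HE held the widest site alone in 517 of the 718 regions (72.0%, interval 68.6 to 75.2), a lower share than the 92.0% (91.4 to 92.5) in regions open in all 5 stages. HB held it in 13.4% (11.1 to 16.1) against 3.57% (3.21 to 3.98). No region held more than 1 site of any stage, and the merged regions were 528 to 1270 bp long.

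**Figure D2:**
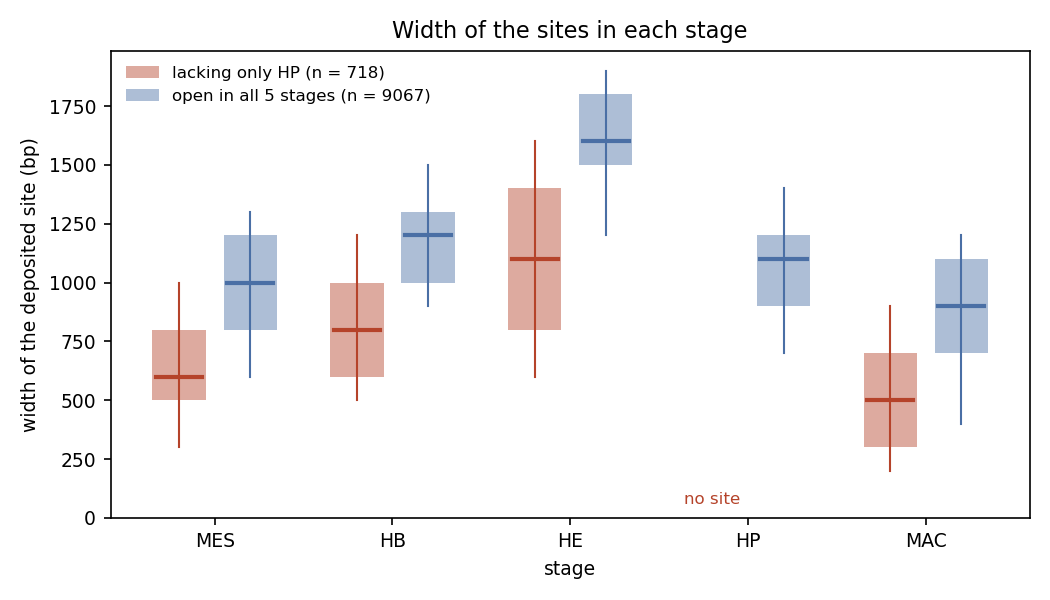
Width of the deposited sites (bp, vertical axis) in each stage for the 718 regions lacking only HP and the 9067 open in all 5 stages; the thick line is the median, the box spans the quartiles and the thin line the 10th to 90th percentile over regions. The median is lower in regions lacking only HP in MES (600 against 1000 bp), HB (800 against 1200 bp), HE (1100 against 1600 bp) and MAC (500 against 900 bp).

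How often HP lacked a region differed with the width of the sites in the other stages and with position. Of the 9785 regions open in the 4 other stages, HP lacked 7.34%. This background is fixed by the rule. The share was 30.9% (28.0 to 34.0) where the narrowest of the 4 sites was at most 300 bp, 20.8% at 400 bp, 15.0% at 500 bp, 6.35% at 600 to 700 bp, 1.84% at 800 to 900 bp and 0.508% (0.313 to 0.824), or 16 of 3150 regions, at 1000 bp or more. The same comparison for a missing MAC list fell from 48.9% to 3.69%, for a missing HE list from 19.0% to 1.99% and for a missing MES list from 12.6% to 0.329%, so a lower share at wide sites was found for HP and for these stages alike. When every list was cut to its 17734 widest sites, as many as HP has, 126 regions lacked only HP, or 1.82% of those then open in the other 4 stages.

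Regions farther than 2 kb from a TSS were missing from HP more often than promoters at every width. HP lacked 22.2% (20.4 to 24.0) of the 2051 non-promoter regions and 3.40% (3.02 to 3.83) of the 7734 promoter regions. At 600 to 700 bp the shares were 16.0% (12.8 to 19.7) and 3.44% (2.62 to 4.51), and at 1000 bp or more they were 3.72% (2.03 to 6.71) and 0.208% (0.0955 to 0.454). The order was the same at 600 to 700 bp for a missing MAC list (38.2% against 25.2%) and a missing MES list (13.3% against 1.71%), and over all widths for a missing HB list (3.74% against 0.480%). For a missing HE list the shares at 600 to 700 bp were 3.74% (2.24 to 6.18) away from promoters and 7.71% (6.47 to 9.15) at promoters, the opposite order. Over all widths the HE shares were 8.90% (7.66 to 10.3) and 6.12% (5.61 to 6.67), in the order found for HP, but most regions lacking only HE were touched by an HE interval.

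**Figure D3:**
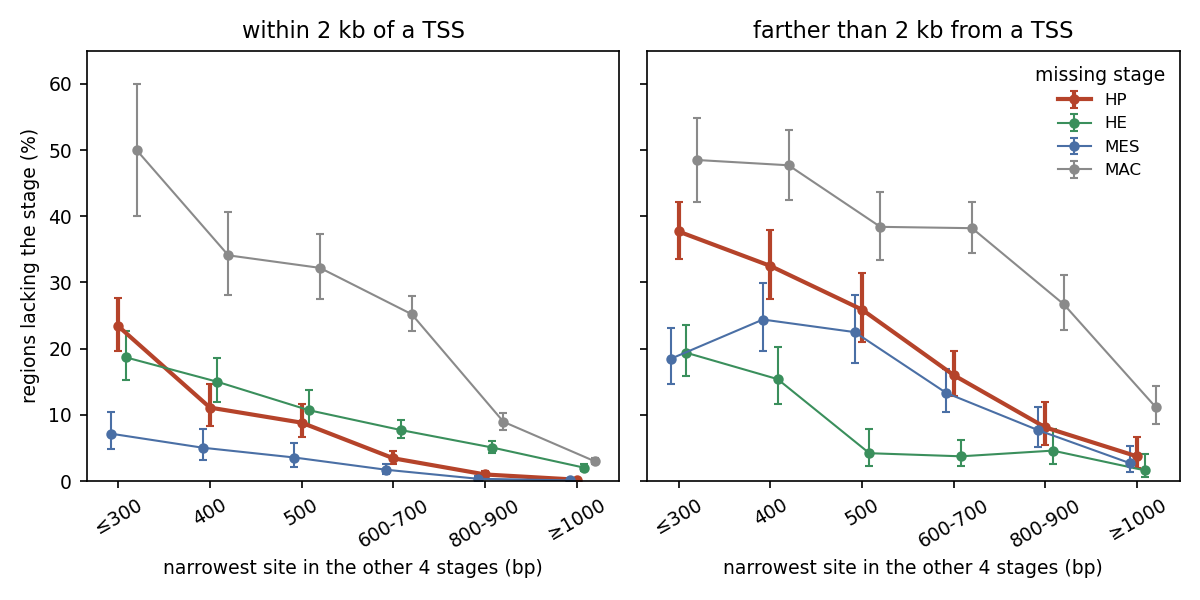
Share of regions open in the 4 other stages that lack a stage (%, vertical axis) by the width of the narrowest of the 4 sites (bp), for promoters (left) and other regions (right); points are shares, bars 95% Wilson intervals, colours the missing stage, HB not drawn. For HP the share falls from 23.4% to 0.208% at promoters and from 37.7% to 3.72% elsewhere, below the values for MAC in each bin.

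The set was less often promoter-bound than regions open in all 5 stages and more often than merged regions as a whole. Promoters within 2 kb of a curated TSS made up 263 of the 718 regions (36.6%, interval 33.2 to 40.2), and 82.4% (81.6 to 83.2) of regions open in all 5 stages, but 24.0% (23.6 to 24.3) of all merged regions. They were 75.7% of regions lacking only HE, 50.2% of those lacking only MAC, 36.7% (27.9 to 46.6) of those lacking only HB and 25.5% (21.3 to 30.2) of those lacking only MES, so a share this low was not particular to HP. Another 230 regions (32.0%) lay within 20 kb of a TSS and 225 (31.3%) beyond. The centre fell in a coding exon in 53 regions, in an untranslated exon in 89, in an intron in 243 and between genes in 333. Non-promoter regions lay a median of 19.6 kb from a TSS, and the farthest 647 kb. The promoter share depended on list length. With every list cut to its widest sites, as many as HP has, it was 57.1% (48.4 to 65.4), against 89.2% for regions open in all 5 stages.

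The difference was found within both width classes. Where the narrowest site was at most 400 bp, 33.7% (29.4 to 38.3) of the regions lacking only HP were promoters, against 56.7% (53.9 to 59.5) of regions open in all 5 stages. At 500 bp or more the shares were 40.9% (35.4 to 46.6) and 86.2% (85.5 to 87.0). This class has no upper limit, and within it the share lacking HP fell from 15.0% at 500 bp to 0.508% at 1000 bp or more. Regions open in all 5 stages were thus wider in this class too. Comparisons at 500 bp or more, here and below, are therefore not matched for width.

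CpG-rich sequence, with a GC share of at least 0.5 and an observed to expected CpG ratio of at least 0.6 over the central 500 bp, stood between the same groups. It was found in 239 of the 718 regions (33.3%, interval 29.9 to 36.8), against 18.2% of all merged regions. Among promoters it was found in 70.0% (64.2 to 75.2), against 88.6% in all 5 stages and 65.9% (65.2 to 66.6) of all merged promoters. Elsewhere it was found in 12.1% (9.41 to 15.4), against 30.3% and 3.21%. Among promoters with a narrowest site of at most 400 bp the intervals overlapped, with 66.7% (58.6 to 73.8) against 75.9% (72.6 to 79.0), and at 500 bp or more they were apart, with 73.9% (65.4 to 81.0) against 89.9% (89.2 to 90.6). Away from promoters in the same width class they overlapped too, with 12.0% (8.73 to 16.3) against 15.1% (12.2 to 18.4), whereas at 500 bp or more the shares were 12.2% (8.13 to 17.9) and 37.5% (34.7 to 40.4). Away from promoters the intervals were thus apart only among the wide regions, a class not matched for width.

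Some motifs were less frequent and others more frequent than in regions open in all 5 stages. At promoters, the GC box GGGCGGG, bound by SP and Krüppel-like factors, was present in the central 500 bp of 43.3% (37.5 to 49.4) of the regions lacking only HP and 63.5% of those open in all 5 stages. The ETS consensus CCGGAAG was present in 16.7% against 28.7%, the NFY consensus CCAATC in 17.1% against 28.5% and the NRF1 consensus GCATGCGC in 3.80% against 8.47%. In the central 200 bp the NRF1 intervals overlapped, with 1.52% (0.593 to 3.84) against 3.91% (3.49 to 4.37). Over all merged promoters the shares were 50.3% for the GC box, 17.4% for ETS, 22.4% for NFY and 4.92% for NRF1, so the ETS and NRF1 shares of the set (intervals 12.7 to 21.7 and 2.08 to 6.86) were not apart from those of promoters in general. A low ETS share was also found at promoters lacking only MAC (11.1%), HE (15.4%) or MES (17.4%), whereas the GC box was present in 61.1%, 80.1% and 44.6% of these. The GC box share at promoters lacking only MES (interval 34.8 to 54.7) or only HB (41.7%, 27.1 to 57.8) was near that of the set. A low share was thus not particular to HP. With a narrowest site of at most 400 bp the GC box was still lower at promoters (42.4%, interval 34.6 to 50.5, against 55.5%, 51.7 to 59.2), but the intervals of the ETS consensus (17.4%, 12.0 to 24.4, against 20.2%, 17.3 to 23.4) and of NFY (18.1%, 12.6 to 25.1, against 21.5%, 18.6 to 24.8) overlapped. At 500 bp or more all 3 were lower, NFY with 16.0% (10.5 to 23.6) against 29.2% (28.2 to 30.3), the GC box with 44.5% (35.9 to 53.5) against 64.3% (63.1 to 65.4) and the ETS consensus with 16.0% (10.5 to 23.6) against 29.5% (28.4 to 30.6). The T-box consensus AGGTGTGA was higher at promoters, with 7 of 263 (2.66%, 1.30 to 5.39) against 0.803% (0.624 to 1.03). In the central 200 bp its intervals overlapped, with 1.14% (0.389 to 3.30) against 0.308% (0.205 to 0.462). The TAL1 E-box was also higher, with 20.9% (16.4 to 26.2) against 14.3% (13.5 to 15.1). Promoters lacking only MAC held the T-box consensus in 1.99% (1.23 to 3.21) and the TAL1 E-box in 18.9% (16.4 to 21.8), so neither was particular to HP. Over all merged promoters they were present in 1.38% and 19.1%. For the TAL1 E-box the promoter intervals overlapped at a narrowest width of at most 400 bp (19.4%, 13.8 to 26.7, against 16.9%, 14.2 to 19.9), and in the central 200 bp the shares were 5.70% and 5.13%. Matches were sought on both strands, the GC box and the NRF1 consensus consist largely of C and G, and a match is a description of the sequence and not a bound site.

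Away from promoters, the GC box was present in 17.4% (14.2 to 21.1) of the regions, against 33.5% (31.2 to 35.8) in all 5 stages and 8.43% of all merged regions beyond 2 kb. The ETS consensus was present in 6.15% (4.29 to 8.75), against 11.3% and 3.74%. At a narrowest width of at most 400 bp the intervals overlapped for both, with 48 of 283 regions (17.0%) against 120 of 511 (23.5%) for the GC box and 5.65% (3.51 to 8.99) against 9.59% (7.33 to 12.5) for ETS. At 500 bp or more the GC box was found in 31 of 172 regions (18.0%) against 414 of 1085 (38.2%), intervals that did not overlap, and ETS in 6.98% (4.04 to 11.8) against 12.2% (10.4 to 14.2), which did.

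In the same regions, the CTCF consensus was present in 77 of 455 regions (16.9%, interval 13.8 to 20.6). This was above the 3.89% of all merged regions beyond 2 kb, but its interval overlapped that of regions open in all 5 stages (13.5%, 11.9 to 15.2). At a narrowest width of at most 400 bp the shares were 19.4% and 20.5%, and at 500 bp or more 12.8% (8.60 to 18.6) and 10.1% (8.48 to 12.1). The match lay a median of 58.0 bp from the region's centre.

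Away from promoters, the TAL1 E-box CAGATG was found in 34.5% (30.3 to 39.0) against 27.4% (25.3 to 29.7) in all 5 stages and 37.3% of all merged regions, and at a narrowest width of at most 400 bp in 31.8% against 33.1%. At 500 bp or more the shares were 39.0% (32.0 to 46.4) and 24.8% (22.3 to 27.4), with intervals apart.

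The consensus of RUNX factors, which drive the transition to blood, was found in 28.8% against 24.6% in all 5 stages (TGTGGT). The consensus AGATAA, bound by the GATA factors of early blood, was found in 15.6% against 14.9%. The shares of both were below those of all merged regions beyond 2 kb, which were 37.3% for RUNX and 27.3% for GATA.

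PU.1, a myeloid factor, had its consensus GAGGAAGT in 6.59% against 5.01%. For these 3 hematopoietic factors the intervals overlapped between the regions lacking only HP and those open in all 5 stages. For TEAD factors, effectors of the Hippo pathway, the consensus was present in 23.5% of the regions, against 24.7% in all 5 stages and 38.2% of regions lacking only MAC (letters searched CATTCC). Over all merged regions beyond 2 kb the shares were 9.47% for PU.1 and 29.3% for TEAD, above the intervals of the set (4.66 to 9.26 and 19.9 to 27.6).

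**Figure D4:**
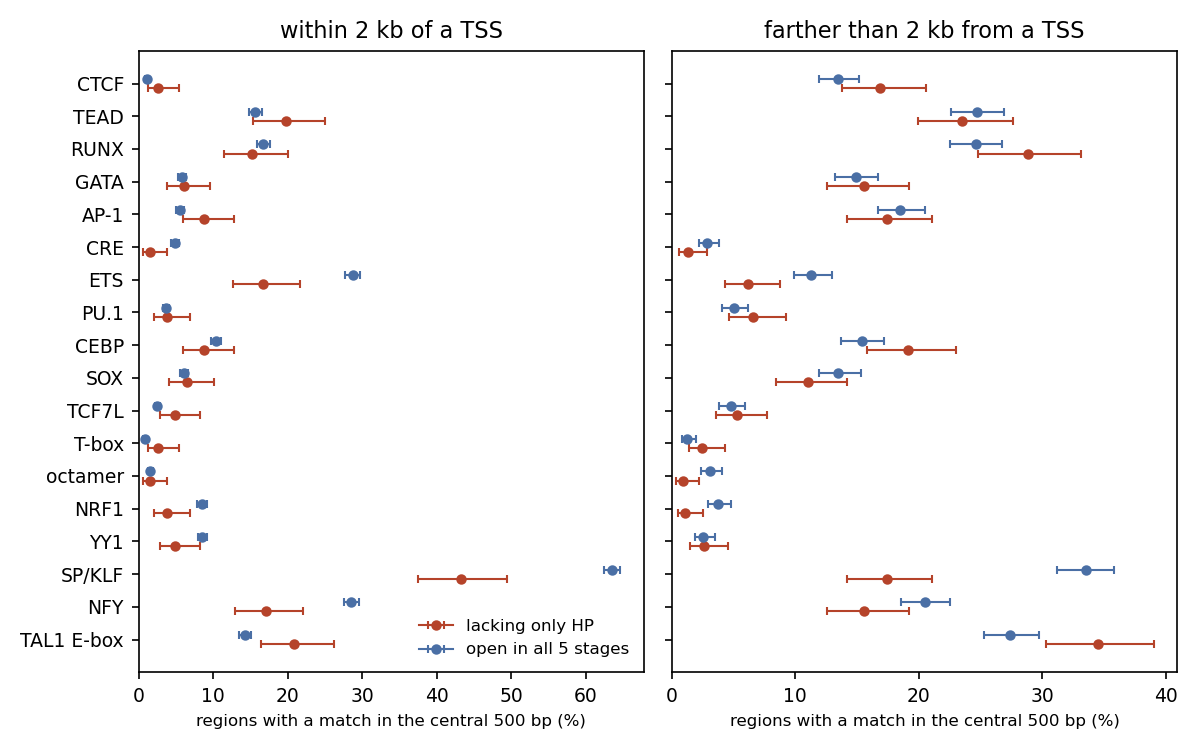
Share of regions with a motif match in the central 500 bp (%, horizontal axis) for promoters (left) and other regions (right), in regions lacking only HP and in regions open in all 5 stages; bars are 95% Wilson intervals. SP/KLF, ETS and NFY are lower at promoters lacking only HP (43.3% against 63.5% for SP/KLF), and CTCF, RUNX and GATA have overlapping intervals away from promoters.

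The promoters concerned belonged to 277 of 21000 protein-coding genes with a curated TSS (1.32%), the background for the lists of genes that follow. This background counts every gene, whether or not its promoter was open in the other stages. Of promoter regions open in the 4 other stages HP lacked 3.40%, so for lists of widely open promoters 1.32% is a low background. Of the 277 genes, 199 had a single TSS position, and 12 of these had an HP site within 1 kb of it beside the region. The other 78 had several, and an HP site lay at 1 or more of them in 22 genes. In all, 243 genes had no HP site at any TSS.

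The 10 promoter regions with the widest sites belonged to genes of varied function. That of Hivep2 (chr10:13964531-13965576, centre in an intron) had sites of 1400, 1400, 1400 and 1000 bp in MES, HB, HE and MAC, and the nearest HP site was 16.7 kb away. Psmb8 (chr17:34197379-34198323, 345 bp from the TSS) had sites of 1300, 1000, 1500 and 1000 bp, with the nearest HP site 9.14 kb away. Plxdc2, a transmembrane receptor (chr2:16355798-16356774), had sites of 1400, 1300, 1800 and 800 bp and its nearest HP site was 1300 kb away. Vti1a, which encodes a SNARE of vesicle transport (chr19:55315780-55316562), had sites of 1000, 1300, 1600 and 900 bp with its centre in an untranslated exon. Other promoters were those of Repin1, Pdf, Zfp518a, Zfp882 and Fam20c, with narrowest sites of 900 or 1000 bp.

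Among the 10 widest regions away from promoters, 4 lay in introns. The Mrps33 region (chr6:39781209-39782029) had sites of 1400, 1900, 1900 and 1300 bp. The Zfhx3 region, in an intron of this homeobox and zinc finger gene (chr8:108748476-108749424), had nearly equal sites of 1000, 1100, 1000 and 1000 bp and an HP site 9.92 kb away. The region nearest to Ccl28 (chr13:119609917-119610698) had its centre in an untranslated exon of Tmem267 and sites of 1100, 1300, 1200 and 1200 bp. Others lay near Btn1a1, Psmd12, Meak7 (in an intron of Atp2c2), Gars, Cyp2w1 (in an intron of 3110082I17Rik) and Rnf7.

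Genes of cell adhesion to the matrix were represented by integrins and their partners. Of 55 genes of focal adhesion and actin, 4 had such a promoter region (7.27%, against 1.32% of all genes), a small count without a test. Itgav, the integrin alpha v chain, had sites of 1000, 1200, 2000 and 400 bp in MES, HB, HE and MAC (chr2:83724175-83725047) and no HP site within 78.7 kb. Its partner Itgb5, integrin beta 5, had sites of 800, 1100, 1400 and 300 bp (chr16:33829308-33830168) and an HP gap of 43.6 kb. In each of these promoters MAC had the narrowest site. Parvb, which links integrins to actin, had sites of 900, 1400, 1800 and 500 bp (chr15:84231511-84232585). Tns1, tensin 1, had sites of 800, 1100, 1100 and 500 bp (chr1:74124548-74125714), and another region of the set lay 222 kb from its TSS. Away from promoters, an intronic region of Itgb1, integrin beta 1 (chr8:128708824-128709825), had sites of 600, 600, 1100 and 300 bp, and 2 regions lay near Actb, beta-actin, 19.7 and 22.6 kb from its TSS.

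Ccnd1, which encodes cyclin D1 of the G1 phase, was 1 of 3 genes nearest to 3 regions of the set. Its promoter region (chr7:144939477-144940208, 11 bp from the TSS) had sites of 500, 800, 400 and 300 bp in MES, HB, HE and MAC. A neighbour 1.89 kb away (chr7:144941409-144942030) had sites of 600, 800, 1500 and 200 bp, and the third region 91.1 kb away (chr7:145030560-145031330) sites of 400, 700, 1000 and 600 bp. Within 130 kb of the TSS MES had 11 sites, HB 13, HE 11 and MAC 10, while HP had 3. Since the gene was picked for the 3 regions that the rule required HP to lack, part of this difference and the lack of an HP site at the TSS are fixed by the choice. The 3 HP sites were 24.9 kb downstream and 85.6 and 106 kb upstream, with widths of 1200, 1100 and 400 bp. The downstream site was matched by a site in every other stage.

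**Figure D5:**
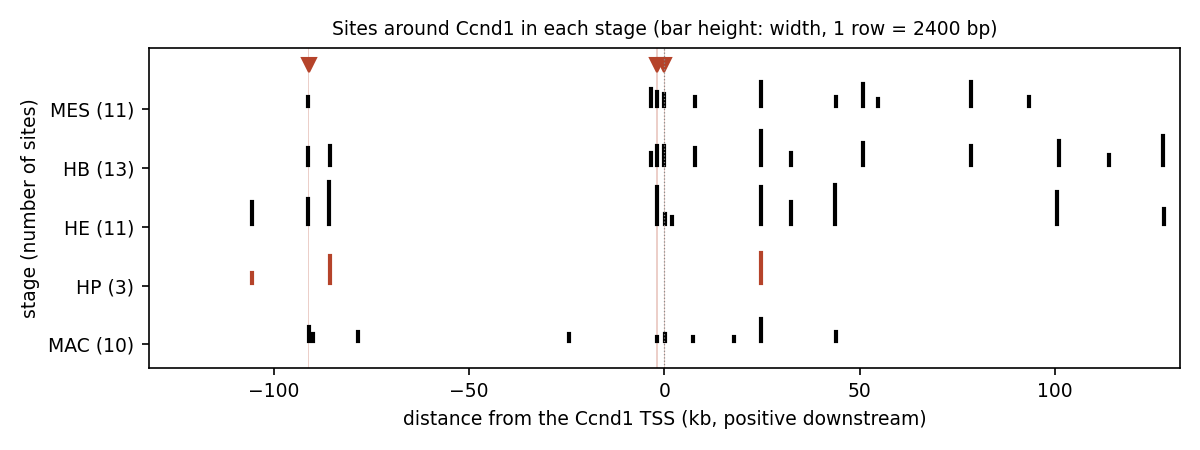
Sites within 130 kb of the Ccnd1 TSS in each stage, by distance from the TSS (kb, positive downstream); bar height gives the width of the site, red triangles the 3 regions lacking only HP. The HP row holds 3 sites, against 10 to 13 in the other stages, and none at the TSS.

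Cdkn2a, which encodes cell cycle inhibitors, was the other member of the 27 genes of D cyclins, cyclin-dependent kinases and their inhibitors. The 2 of 27 (7.41%, against 1.32% of all genes) are a small count without a test. The Cdkn2a region (chr4:89281808-89282615) had sites of 700, 1100, 1500 and 600 bp, and an HP site lay at the other of the gene's 2 TSS positions. The remaining genes nearest to 3 regions were Tmem17, a transmembrane protein of the primary cilium, and Tgif1, a homeobox repressor of TGF-beta signalling, whose 3 regions all lay in introns of Dlgap1, 91.4 to 140 kb from the TSS of Tgif1. Of the 693 genes nearest to any region, 669 had a single region and 21 had 2.

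Of 32 hematopoietic transcription factor genes, 1 had its promoter in the set (3.12%, against 1.32% of all genes). This was Cebpd, a C/EBP factor of myeloid cells (chr16:15887008-15887731). Its sites were 800, 1300, 1600 and 700 bp wide in MES, HB, HE and MAC, it was CpG-rich and the nearest HP site lay 22.6 kb away. The macrophage factor Irf8 was nearest to regions away from promoters. The Irf8 regions, 81.5 and 170 kb from its TSS, had sites of 300, 400, 1500 and 400 bp (chr8:120819775-120820523) and 400, 700, 1800 and 500 bp (chr8:120908674-120909544), in each case widest in HE.

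No promoter region was found for any of 35 endothelial genes, 35 Hippo pathway genes, 14 AP-1 factors, 17 Krüppel-like factors, 19 NF-kB genes, 39 chromatin modifiers, 31 genes of lysosome and autophagy, 23 stress genes or 81 cytosolic ribosomal proteins. With 1.32% of all genes carrying such a region, a count of 0 in lists of this size says nothing particular of them. Away from promoters, the endothelial genes Cd34 and Jag1 were nearest to a region each. The Cd34 region (chr1:194879141-194880052, 59.2 kb from the TSS) had sites of 400, 700, 1700 and 300 bp. The Hippo targets and regulators Ccn1 and Wwc1, the growth factor response gene Fosb and the oncogene Myc were also each nearest to a single region. That of Myc lay 121 kb from its TSS (chr15:62106436-62107060) and had sites of 400, 700, 700 and 200 bp.

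In signalling pathways, Tgfb3 was the only member of 32 TGF-beta, BMP and Smad genes (3.12%) and Lrp5, a Wnt co-receptor, that of 27 Wnt and TCF genes (3.70%). Against 1.32% of all genes, single genes say nothing particular of these lists. The sites at Tgfb3, a TGF-beta ligand, were 800, 1000, 1300 and 200 bp wide (chr12:86079071-86079825), with an HP site 2.34 kb away. The Lrp5 region (chr19:3687563-3688289) lay 1361 bp from the TSS, and an HP site stood 0.398 kb away and within 1 kb of the TSS, so this promoter was not without an HP site.

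Larger gene families stayed near the background of 1.32%. Zinc finger Zfp genes had 9 of 392 (2.30%), among them Zfp518a (900, 1100, 1700 and 900 bp) and Zfp882 (900, 1200, 1600 and 900 bp). Solute carriers had 6 of 345 (1.74%), including Slc37a2 (500, 700, 1300 and 600 bp) and Slc25a24 (700, 800, 1600 and 600 bp). Mitochondrial ribosomal proteins had 1 of 78, Mrpl3, NADH dehydrogenase subunits 1 of 37, Ndufc2, and cadherins 2 of 97, Cdh10 and Pcdh10.

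Regions away from promoters lay near genes whose promoters were mostly open. The promoter of the nearest gene had an HP site in 58.7% (54.1 to 63.1) of the 455 non-promoter regions, against 63.8% (61.5 to 66.2) for regions open in all 5 stages, and intervals overlapped. The corresponding share was 74.5% for HE and 60.2% for MAC.

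Promoter regions lacking only HP were more frequent on the X chromosome than on autosomes. Of 199 X-linked promoters open in the 4 other stages, HP lacked 16 (8.04%, interval 5.01 to 12.7), against 247 of 7533 on autosomes (3.28%, 2.90 to 3.71). They included Uba1, the ubiquitin-activating enzyme (chrX:20662639-20663515, sites of 800, 900, 1500 and 700 bp), where an HP site lay at 2 of the 3 TSS positions, Diaph2, a formin (chrX:129749564-129750265, sites of 800, 1000, 1600 and 1000 bp), and Fam120c (chrX:151343789-151344665, sites of 900, 1200, 1600 and 800 bp). Promoters lacking only MAC were 14.9% (10.7 to 20.3) on the X and 9.57% (8.95 to 10.2) on autosomes, and those lacking only MES 3.68% (1.80 to 7.41) and 1.15% (0.934 to 1.42). The order was the other way for promoters lacking only HE, with 3.17% (1.46 to 6.75) on the X and 6.19% (5.68 to 6.75) on autosomes, and 0 of 183 X-linked promoters lacked only HB, against 0.492% on autosomes. X-linked promoters open in all 5 stages had a median narrowest site of 700 bp and autosomal ones of 900 bp, whereas among promoters lacking only HP the medians were 450 and 400 bp, and the part of width in this difference was not tested. Away from promoters the order was opposite for HP too: 1 of 39 X-linked regions lacked it (2.56%, 0.454 to 13.2), against 22.6% (20.8 to 24.5) on autosomes.

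A tRNA gene lay in the central 500 bp of 6 regions, of which 5 were away from coding promoters (5 of 455, 1.10%, interval 0.470 to 2.55, against 2.76%, 2.06 to 3.68, in all 5 stages and 0.222% of all merged regions beyond 2 kb). Besides tRNA-Val near Btn1a1, these included tRNA-Arg (nearest H4c8, chr13:23525967-23526811, sites of 600, 600, 1500 and 300 bp), tRNA-Lys (nearest Olfr1423, chr19:12005580-12006130, sites of 800, 1100, 1600 and 800 bp) and tRNA-Asn (nearest Fcgr4). The region at a coding promoter held tRNA-Ser and belonged to B4gat1. Of all 403 nuclear tRNA genes, HP sites touched 44.4%, against 32.5% for MAC, 44.9% for MES, 50.1% for HB and 52.4% for HE.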

How the data were processed

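DNaseI-seq measured open chromatin in 5 sorted populations of 1 differentiating mouse cell line, with 1 list per stage. The authors trimmed reads (CutAdapt), aligned them to mm10 (Bowtie), dropped duplicates (Picard) and took DHSs from DFilter, run on 100 bp bins. The versions are not given in the sources used here. The deposited lists hold positions alone, with no counts, signal or score, so depth behind a site is unknown.

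From these positions, merged regions, gaps and widths were computed in Python 3.11.15 (numpy 2.4.6, matplotlib 3.10.9). Genes, TSS positions and sequence came from RefSeq on GRCm38.p6, the build of the lists. Promoters lay within 2 kb of the TSS of a curated coding mRNA. Motifs were sought on both strands in the central 500 bp. The 4 mitochondrial regions were left out of annotation. Regions named in the text were, among those with no HP site within 1 kb, the 10 promoter and 10 other regions with the largest narrowest site, genes of the lists with a promoter region and genes nearest to at least 3 regions; CTCF, X-linked and tRNA regions and genes nearest to regions away from promoters were picked after their values were seen. The members and the gene lists were chosen with earlier results of these data known. Some regions that meet these rules are not reported here. A pattern for histone genes matched 0 symbols. Region building and motif search were tested on simulated data. No test between stages was possible with 1 list per stage, so shares are given with 95% Wilson intervals. Alternatives covered the joining of windows, list length, the promoter and CpG definitions and the motif window.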

Additional observations from a re-analysis of the deposited data

How the results depend on the processing

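The number of regions was 624 to 838 when windows were joined at 250 bp or 1 bp of overlap, when deposited intervals were merged and when only untouched regions were kept, and 490 when each list kept the wider part of its sites from the median up. Cutting every list to as many sites as HP has, the widest first, left 126, all of which overlapped a region of the set, or 1.82% of the regions then open in the 4 other stages. This alternative leaves the HP list whole and shortens the others. Their promoter share was 57.1%, against 89.2% for regions open in all 5 stages under the same limit.

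With the TSS of all annotated transcripts the promoter share was 47.4%, against 87.0% for regions open in all 5 stages. The stricter CpG definition gave 28.8% against 70.5%. The median width of HE sites was 1400 bp in promoter regions, against 1100 bp over all regions. The other medians moved by at most 1 bin. In the central 200 bp, 32 of 36 motif shares fell out of the interval found with 500 bp, as a shorter window holds fewer matches, and leaving out touched regions moved none of the 36 out of it.

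No paired analysis was possible because each stage has 1 list and no replicate numbers. The lists give no read depth, so the part of depth in the absence from HP was not tested.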
